A study of Mus musculus with 2 samples.

Results

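The MHC class II genes described here are 8 genes taken from a fixed list: H2-Aa, H2-Ab1, H2-Eb1, Cd74, Ciita, H2-DMa, H2-DMb1 and H2-DMb2. All 8 are listed in both single-cell count tables, out of 17683 genes listed in at least 1 of them. The list sets no cut on a measured value, but it was chosen with earlier results of these data known. The cells are CD45+ immune cells sorted from retinas of B6 mice aged 8 to 10 months. All mice, controls included, carried microbead-induced glaucoma, in which injected beads clog the drainage of fluid and the pressure in the eye goes up. The treated mice received Igfbpl1, a secreted relative of the insulin-like growth factor binding proteins, and the controls received PBS. The series' design text names 10 mice in each group, and each group is 1 library made with a droplet 3' kit, so there is no replicate and no test: intervals below are 95% intervals that cover counting error only, and a ratio compares 2 libraries, not 2 treatments.

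Class II molecules display peptides from engulfed proteins to CD4 T cells. An alpha and a beta chain pair in the endoplasmic reticulum with the invariant chain Cd74, which blocks the groove. In late endosomes Cd74 is cut down to a short stub, and H2-DM exchanges that stub for peptide. Ciita is the coactivator that switches the whole set on, through factors bound at shared X and Y boxes in the promoters. Dendritic cells, B cells and macrophages carry much class II, whereas resting microglia carry little and retinal neurons are not known to make it.

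The Igfbpl1 library held 3330 cells with 9463631 UMIs (unique molecular identifiers, counted once per captured transcript), and the PBS library held 1055 cells with 3795008 UMIs. No cell barcode was shared. Median UMIs per cell were 2355.5 in the Igfbpl1 library and 3433 in the PBS library. Cells were placed in classes from markers that hold no MHC gene, and a class is called "like" its cell type because the names rest on those markers alone. Microglia-like cells made up 1648 of 3330 cells in the Igfbpl1 library and 789 of 1055 in the PBS library. Ptprc, the gene of CD45 used for the sort, stood at 706 and 590 CPM (a gene's UMIs per 1000000 UMIs of the class) in microglia-like cells of the Igfbpl1 and PBS libraries, against 34.7 and 4.53 CPM in neuron-like cells of the same libraries. The 135 neuron-like cells of the Igfbpl1 library and the 70 of the PBS library thus held little of the sort marker, and they serve as the background of free RNA. The libraries stood apart in their makeup: monocyte-like cells numbered 314 and 7, migratory dendritic-like cells 98 and 0, conventional dendritic-like cells 53 and 1, plasmacytoid dendritic-like cells 68 and 2, and NK-like cells 143 and 3, in the Igfbpl1 and PBS libraries. B-like cells numbered 61 and 79, and border macrophage-like cells 7 and 21. Cells with comparable evidence for several classes (266 and 23, mixed) or for none (243 and 19, unplaced) were kept apart.

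The 8 genes together took 1.45% of all UMIs in the Igfbpl1 library and 0.432% in the PBS library. Monocyte-like cells held 36.1% of the class II UMIs of the Igfbpl1 library, which otherwise lay with 26.0% in mixed cells, 14.1% in unplaced cells, 8.76% in conventional dendritic-like cells and 6.88% in microglia-like cells. In the PBS library 27.6% lay in microglia-like cells, 25.4% in B-like cells, 18.3% in border macrophage-like cells and 18.1% in mixed cells. The whole-library share thus differed together with the makeup of the cells. Of the mixed cells in the Igfbpl1 library, 93 shared monocyte and conventional dendritic markers, and their summed class II level was 45686 CPM. In the PBS library 15 of the 23 mixed cells shared border macrophage and microglia markers.

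By summed level the classes followed a steep order. Conventional dendritic-like cells had 42359.6 CPM (41606 to 43124) and monocyte-like cells 41555 CPM (41189 to 41923) in the Igfbpl1 library, and these neighbours did not differ beyond counting error. The 138 monocyte-like cells that just met the minimum of 3 markers had 45613 CPM, and those above the minimum had 38797 CPM. Only 1 monocyte marker was among the top 10 genes of the monocyte-like class. In a clustering made without class II genes, a cluster with 9 of 10 conventional dendritic markers raised held 379 cells of the Igfbpl1 library. Only 53 were placed as conventional dendritic-like. Clusters with 7 of 9 and 9 of 9 monocyte markers raised held 406 and 20 cells of that library. The cluster of 406 cells was led by Apoe, H2-Aa, H2-Eb1, Cd74 and H2-Ab1. The cluster of 20 cells, with 9 of 9 monocyte markers raised, had no class II gene among its top 10 genes. The border between monocyte-like and conventional dendritic-like cells is thus uncertain, and so is the name monocyte for the cells high in class II. Border macrophage-like cells had 31139 CPM in the PBS library. B-like cells followed with 24654 and 22119 CPM in the Igfbpl1 and PBS libraries, then migratory dendritic-like cells with 17480 CPM (16955 to 18017) and plasmacytoid dendritic-like cells with 8116 CPM (7755 to 8489), both in the Igfbpl1 library. Microglia-like cells had 2383 CPM in the Igfbpl1 library and 1559 CPM in the PBS library. The 7 monocyte-like cells of the PBS library stood at 2009 CPM (1572 to 2529), and 77.8% of their class II UMIs came from 1 cell. Within a class the spread between cells was wide: class II UMIs per cell had a median of 155.5 in monocyte-like cells and 11.5 in migratory dendritic-like cells, of which 53 of 98 had at least 10.

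**Figure D1:**
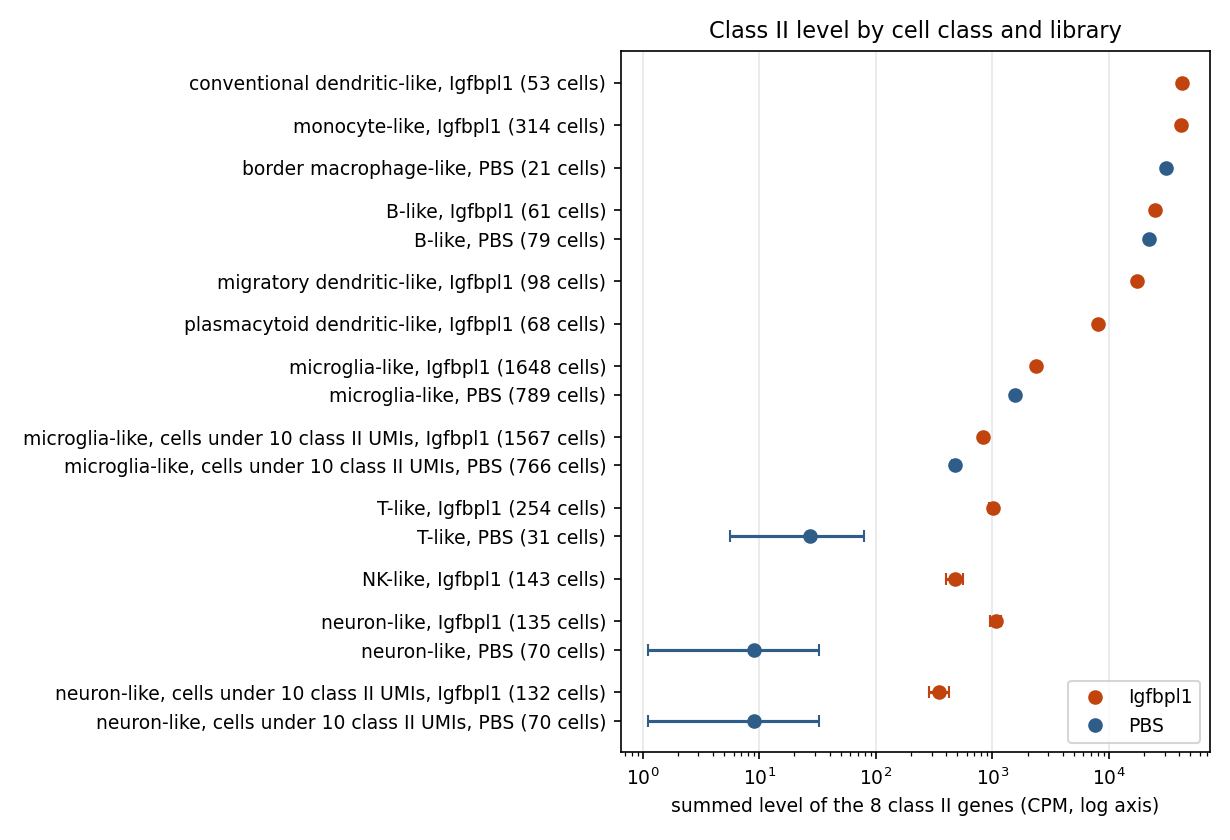
Summed level of the 8 class II genes in CPM on a log axis, for each cell class and library, with 95% Poisson intervals (many are narrower than the point). Monocyte-like and conventional dendritic-like cells of the Igfbpl1 library and border macrophage-like cells of the PBS library lie highest. Neuron-like cells lie at 1064 CPM in the Igfbpl1 library and 9.06 CPM in the PBS library.

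The chains that present peptide were counted in proportions that differed between the antigen-presenting classes, although their levels went up and down together. H2-Aa is the alpha chain and H2-Ab1 the beta chain of I-A. H2-Eb1 is the beta chain of I-E, whose alpha partner is a pseudogene in B6 mice. For every UMI of H2-Ab1 there were 0.843 UMIs of H2-Aa in conventional dendritic-like cells and 0.915 in monocyte-like cells of the Igfbpl1 library, and 1.09 and 1.05 in B-like cells of the Igfbpl1 and PBS libraries. Migratory dendritic-like cells had 1.38 UMIs of H2-Aa and 1.75 of H2-Eb1 per UMI of H2-Ab1, more of both than any of these classes. Among antigen-presenting classes of at least 20 cells, Cd74 ranged between 1.80 UMIs per UMI of H2-Ab1 in conventional dendritic-like cells and 3.49 in B-like cells of the PBS library. Across 17 points (classes of at least 20 cells, by library), Pearson's r of log2(CPM + 10) between any pair of H2-Aa, H2-Ab1, H2-Eb1 and Cd74 lay between 0.982 and 0.997. These points share libraries, depth and free RNA, so the correlations are a description.

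**Figure D2:**
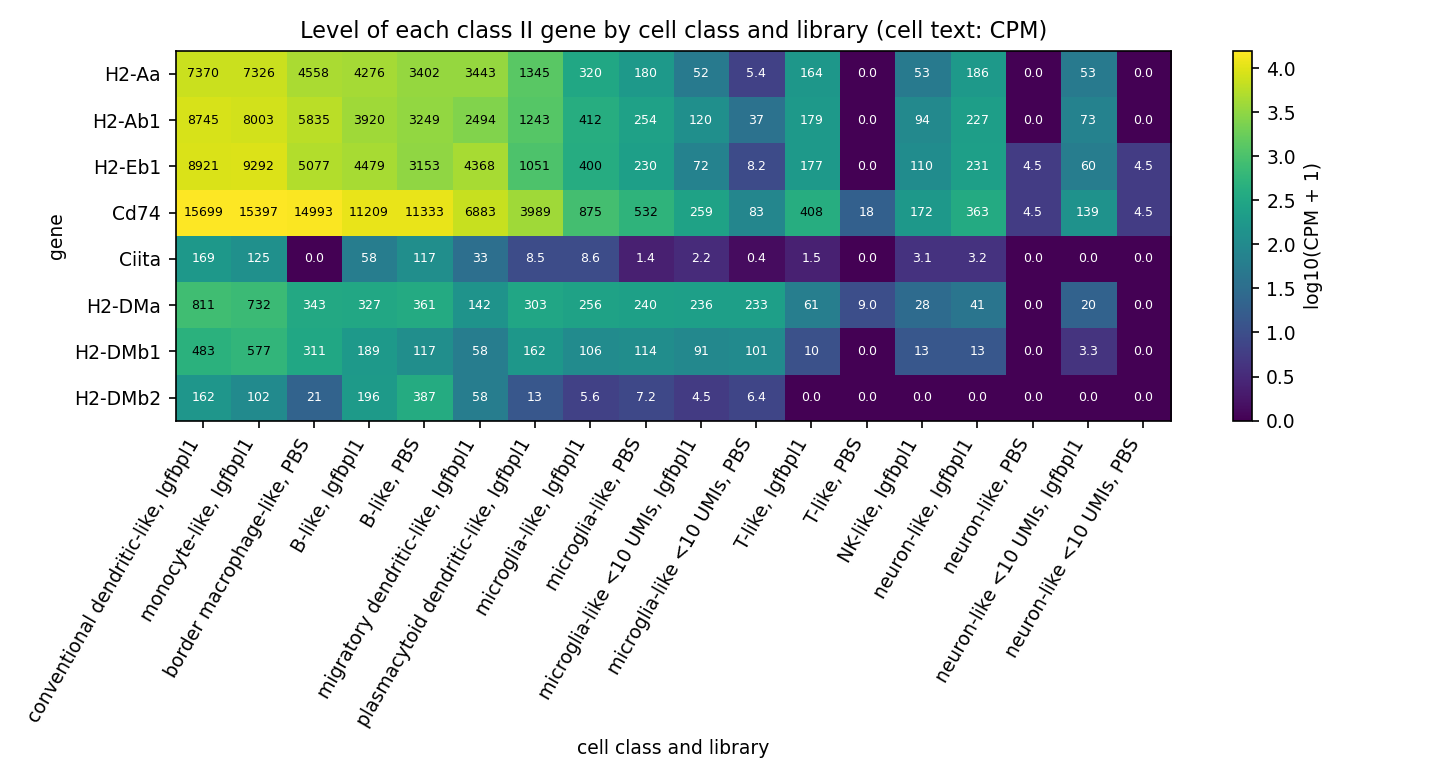
Level of each class II gene (rows) in each class and library (columns), coloured by log10(CPM + 1) with the CPM printed in each field. H2-Aa, H2-Ab1, H2-Eb1 and Cd74 change together over the columns, whereas H2-DMa and H2-DMb1 stay above 90 CPM in microglia-like cells with few class II UMIs and H2-DMb2 is highest in B-like cells.

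Because the members move together across classes, 4 of their promoters from RefSeq (GRCm38.p6) are shown as 61 bases around the Y box, 5′ to 3′ on the gene's strand. H2-Aa lies at chr17:34287857-34287917 (minus strand), H2-Eb1 at chr17:34305762-34305822, H2-DMb1 at chr17:34153084-34153144 and H2-DMb2 at chr17:34145113-34145173 (plus strand). Capitals mark exact matches to GATTGG (Y box, the site of NF-Y) and CTNGNAAC (X box, the site of the RFX complex, N being any base). They also mark TGATGATG, the only letters searched for the X2 box, the site of CREB. The X and X2 matches adjoin in H2-Eb1 and H2-DMb1. H2-Aa has no match to TGATGATG but reads tgacgtca just after its X match, letters that were not searched. The missing match thus does not show that H2-Aa lacks an X2 box.
H2-Aa: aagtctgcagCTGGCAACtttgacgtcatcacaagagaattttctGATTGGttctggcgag
H2-Eb1: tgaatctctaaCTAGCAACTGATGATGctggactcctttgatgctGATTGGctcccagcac
H2-DMb1: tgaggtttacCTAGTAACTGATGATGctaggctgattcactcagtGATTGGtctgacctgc
H2-DMb2: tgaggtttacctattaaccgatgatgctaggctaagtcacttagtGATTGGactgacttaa
The X match begins 35, 34 and 35 bases before the Y match in H2-Aa, H2-Eb1 and H2-DMb1. In H2-DMb2 the printed stretch holds no match to the X or X2 letters searched. The letters were chosen with these promoters in view, and both strands were searched. Of 32851 promoter windows of 300 bases, 16.1% hold GATTGG, 13.2% hold CTNGNAAC, 1.44% hold TGATGATG, and 64 (0.195%) hold an X match followed by a Y match within 60 bases. Of the 2 RefSeq windows of H2-DMa, neither of which is shown, 1 holds a GATTGG match and neither holds an X or X2 match. Promoters of H2-Ab1, Cd74 and Ciita were not examined, so the matches shown do not cover these members. A match describes letters in a window, and the data hold no measurement of binding.

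Ciita, the coactivator, was seen at few UMIs everywhere. Its level was 169 CPM (125 to 224) in conventional dendritic-like cells and 125 CPM (106 to 147) in monocyte-like cells of the Igfbpl1 library. B-like cells had 58.1 CPM (25.1 to 114) in the Igfbpl1 library and 117 CPM (73.2 to 177) in the PBS library, intervals that overlap. Migratory dendritic-like cells had 33.3 CPM (14.4 to 65.6) and plasmacytoid dendritic-like cells 8.54 CPM (1.03 to 30.9). Border macrophage-like cells of the PBS library, with 31139 CPM of class II, had 0 Ciita UMIs, which allows up to 31.1 CPM. Neuron-like cells had 1 UMI in the Igfbpl1 library and 0 in the PBS library. Microglia-like cells had 34 Ciita UMIs in the Igfbpl1 library and 4 in the PBS library, or 8.59 and 1.38 CPM, a ratio of 6.22 (2.22 to 24.1). Of these, 26 of the 34 and 3 of the 4 lay in the microglia-like cells with at least 10 class II UMIs described below. The gene lies at chr16:10480059-10528418 (mm10) and its annotation overlaps that of Dexi on the other strand, and whether counting used strand is not stated in the sources used here.

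The DM genes, which load peptide, were spread differently. H2-DMa, the alpha chain, had 811 CPM in conventional dendritic-like and 732 CPM in monocyte-like cells of the Igfbpl1 library. It had 327 and 361 CPM in B-like cells and 256 and 240 CPM in microglia-like cells of the Igfbpl1 and PBS libraries. Migratory dendritic-like cells had only 142 CPM (98.04 to 198) beside 17188 CPM of the 4 presenting genes. H2-DMb1, a beta chain, was at 577 CPM in monocyte-like and 483 CPM in conventional dendritic-like cells, and at 106 and 114 CPM in microglia-like cells of the Igfbpl1 and PBS libraries. H2-DMb2, the other beta chain, had 196 CPM (129 to 285) in B-like cells of the Igfbpl1 library and 387 CPM (304 to 487) in those of the PBS library, and 162 CPM (119 to 216) in conventional dendritic-like cells of the Igfbpl1 library. Microglia-like cells had 5.56 and 7.24 CPM of it in these libraries, from 22 and 21 UMIs. H2-DMa's annotation overlaps that of Brd2 on the other strand.

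Which beta chain was counted therefore depended on the class. H2-DMb2 made up 50.9% (36.8 to 64.9) of the beta chain UMIs in B-like cells of the Igfbpl1 library and 76.8% (67.1 to 84.9) in B-like cells of the PBS library. It made up 50% (30.6 to 69.4) in migratory dendritic-like cells, 25.1% (19.0 to 32.1) in conventional dendritic-like cells and 15.1% (12.7 to 17.7) in monocyte-like cells of the Igfbpl1 library. In microglia-like cells it made up 5.0% (3.16 to 7.47) in the Igfbpl1 library and 5.97% (3.73 to 8.98) in the PBS library. The 2 genes are neighbours and near copies: their transcripts are 90.7% identical over the aligned length and 72.2% over the last 300 bases, with a longest shared run of 23 bases there. How the authors' counting split reads between them is uncertain, and that split was not tested. Over the 17 points H2-DMb2 was most like Ciita (r = 0.928), and H2-DMb1 was most like H2-DMa (r = 0.954).

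In most microglia-like cells DM was large beside the presenting chains. Microglia-like cells with under 10 class II UMIs had 65.8 DM UMIs (62.1 to 69.7) per 100 UMIs of the 4 presenting genes in the Igfbpl1 library and 256 (240 to 272) in the PBS library. Monocyte-like and conventional dendritic-like cells had 3.53 and 3.57 per 100 in the Igfbpl1 library, and migratory dendritic-like cells had 1.502. B-like cells had 2.98 and 4.09 per 100 in the Igfbpl1 and PBS libraries, and border macrophage-like cells of the PBS library had 2.22. Microglia-like cells with at least 10 class II UMIs had 4.32 (3.81 to 4.87) in the Igfbpl1 library and 3.17 (2.57 to 3.86) in the PBS library. Neuron-like cells with under 10 class II UMIs had 7.14 (2.87 to 14.7) and T-like cells with under 10 had 11.6 (7.29 to 17.6) in the Igfbpl1 library. The split at 10 UMIs uses the counts it describes, so these are descriptions.

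**Figure D3:**
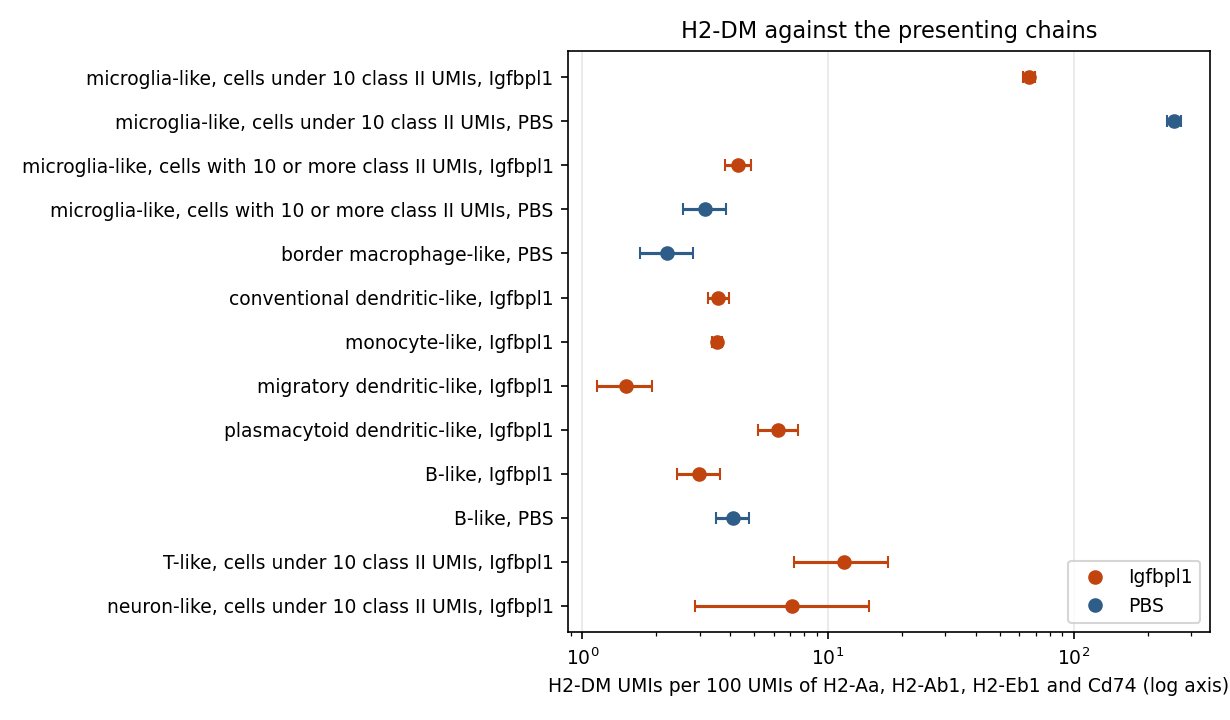
UMIs of H2-DMa, H2-DMb1 and H2-DMb2 per 100 UMIs of H2-Aa, H2-Ab1, H2-Eb1 and Cd74, on a log axis, with 95% Poisson intervals for the DM count. Microglia-like cells under 10 class II UMIs lie at 65.8 in the Igfbpl1 library and 256 in the PBS library, and the other classes lie between 1.502 and 11.6.

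Between the libraries, the presenting chains were higher in microglia-like cells of the Igfbpl1 library and the DM genes differed by no more than counting error. H2-Aa had 320 CPM in the Igfbpl1 library and 180 CPM in the PBS library, a ratio of 1.78 (1.61 to 1.98). H2-Ab1 had 412 and 254 CPM (1.62, 1.49 to 1.77), H2-Eb1 400 and 230 CPM (1.74, 1.59 to 1.91), and Cd74 875 and 532 CPM (1.64, 1.55 to 1.75), in the Igfbpl1 and PBS libraries. H2-DMa had 256 and 240 CPM (1.07, 0.966 to 1.17), H2-DMb1 106 and 114 CPM (0.925, 0.798 to 1.07), and H2-DMb2 5.56 and 7.24 CPM (0.767, 0.402 to 1.47). Together the 3 DM genes had 367 CPM in the Igfbpl1 library and 362 CPM in the PBS library (1.01, 0.937 to 1.10). A gene was called when it passed 1.5-fold after adding 10 CPM to both levels, among genes with a mean of at least 50 CPM and at least 20 UMIs. By that rule 4 of the 6 measured members were higher, against 3.92% of 3341 measured genes, and 0 of 6 were lower, against 5.36%. Ciita and H2-DMb2 were below the minimum level. Since the members were chosen with earlier results of these data known, this count is a description.

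A small number of cells held most of these UMIs, and the ratio depends on how cells enter the sum. Microglia-like cells with at least 10 class II UMIs numbered 81 of 1648 (4.92%, 3.92 to 6.07) in the Igfbpl1 library and 23 of 789 (2.92%, 1.86 to 4.34) in the PBS library. They held 68.2% of the class's class II UMIs in the Igfbpl1 library and 70.7% in the PBS library. Single cells reached 351 UMIs in the Igfbpl1 library and 377 in the PBS library. Within these high cells the 4 presenting genes stood at 16555 CPM in the Igfbpl1 library and 29137 CPM in the PBS library, so the order of the libraries turned round (ratio 0.568, 0.544 to 0.593). The 3 DM genes together stood at 714 and 923 CPM in the high cells of the Igfbpl1 and PBS libraries (0.774, 0.612 to 0.986). With every cell thinned to 1000 UMIs, which counts shallow and deep cells alike, the ratio of the 8 genes was 1.04, against 1.53 (1.48 to 1.58) without thinning. It was 0.880 in cells with UMIs of 4 Y-linked genes and none of Xist, and 0.851 after the neuron-like level was subtracted in each library. That subtraction rests on 3 neuron-like cells with at least 10 class II UMIs, and without them in the background the ratio was 1.31, so the direction did not turn.

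The high cells also carried other markers. At least 2 markers of 1 of 5 other lists (border macrophage, monocyte, conventional dendritic, migratory dendritic or B) were found in 41 of the 81 high cells of the Igfbpl1 library and 18 of the 23 of the PBS library, against 113 of 1567 and 125 of 766 of the other microglia-like cells. The plasmacytoid dendritic list was left out of these 5, because 502 of the 1567 and 437 of the 766 held at least 2 of its markers. Monocyte markers led in the Igfbpl1 library, in 30 of the 81, and border macrophage markers in the PBS library, in 14 of the 23. Summed microglia markers stood at 5580 and 6196 CPM in high cells of the Igfbpl1 and PBS libraries, below the 11982 and 16731 CPM of the other microglia-like cells, and median UMIs per cell were 3846 and 4144, against 2031 and 3494. In a clustering made without the class II genes, 44 of the 81 and 20 of the 23 fell in 1 cluster whose top 10 genes include Apoe, Lyz2 and 4 class II genes, and in which monocyte markers are raised. Doublet calls marked 9 of the 81 and 0 of the 23, against 11 of 1567 and 1 of 766 of the other microglia-like cells. The part of other cell types or of doublets in these cells' class II was not tested beyond these counts. Among microglia-like cells with at most 1 marker of each of the 5 lists, the presenting genes stood at 982 CPM in the Igfbpl1 library and 539 CPM in the PBS library (1.82, 1.71 to 1.95), and the DM genes at 358 and 347 CPM. This set still holds the high cells with at most 1 marker of each list, and no background was subtracted from it.

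**Figure D4:**
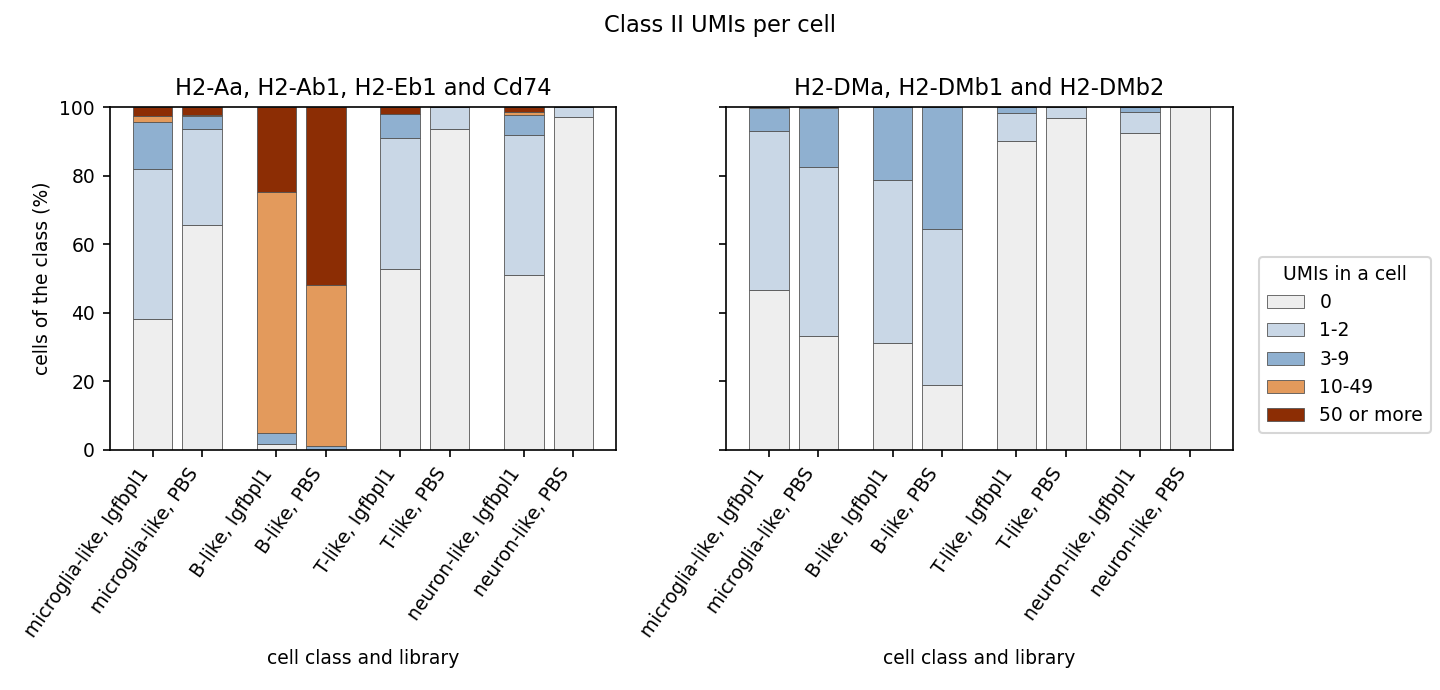
Share of cells by the number of UMIs they hold of the 4 presenting genes (left) and of the 3 DM genes (right), for 4 classes, Igfbpl1 beside PBS. Microglia-like cells with no UMI of the presenting genes are 628 of 1648 in the Igfbpl1 library and 519 of 789 in the PBS library, whereas neuron-like cells with no DM UMI are 125 of 135 and 70 of 70.

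In the remaining microglia-like cells, with under 10 class II UMIs, the 4 presenting genes together stood at 503 CPM (480 to 527) in the Igfbpl1 library, against 324 CPM (263 to 395) in neuron-like cells of that library with under 10. In the PBS library they stood at 133 CPM (120 to 147) in these microglia-like cells, against 9.06 CPM (1.10 to 32.7) in neuron-like cells. With both classes cut at under 10 class II UMIs, the sum was thus above the free-RNA level in both libraries, but not every gene was. The cut uses the counts it describes. Without it, neuron-like cells of the Igfbpl1 library had 1008 CPM (900 to 1124) of the 4 genes, against 2007 CPM in all microglia-like cells. That uncut neuron-like level lies above the 503 CPM of the microglia-like cells with under 10. H2-Aa had 52.1 CPM (44.9 to 60.1) in microglia-like cells with under 10 class II UMIs of the Igfbpl1 library, and 52.9 CPM (30.2 to 85.9) in the neuron-like cells of that library with under 10, so it is read as background there. H2-Eb1 had 72.5 CPM in these microglia-like and 59.5 CPM in these neuron-like cells, with overlapping intervals (63.9 to 81.8 and 35.3 to 94.1). H2-Ab1 had 120 and 72.7 CPM (109 to 132 and 45.6 to 110), again overlapping at the edge, and Cd74 had 259 and 139 CPM (242 to 276 and 100 to 188), which do not overlap. In the PBS library the same microglia-like cells had 5.37 CPM of H2-Aa, 8.24 CPM of H2-Eb1, 36.9 CPM of H2-Ab1 and 82.7 CPM of Cd74. The neuron-like cells of that library had 0, 4.53, 0 and 4.53 CPM of these 4 genes, where 0 allows up to 13.6 CPM. Between the libraries these low-level microglia-like cells differed 9.70-fold for H2-Aa (5.73 to 17.7) and 3.13-fold for Cd74 (2.70 to 3.63), and the neuron-like background moved in the same direction.

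H2-DMa stood at 236 CPM (221 to 253) in these microglia-like cells of the Igfbpl1 library and 233 CPM (216 to 252) in those of the PBS library. The neuron-like cells with under 10 class II UMIs had 19.8 CPM (7.28 to 43.2) in the Igfbpl1 library and 0 in the PBS library. H2-DMb1 stood at 90.6 and 101 CPM in these microglia-like cells of the Igfbpl1 and PBS libraries, and at 3.31 and 0 CPM in the neuron-like cells. DM was therefore above the background in both libraries and did not differ between them beyond counting error. After thinning, 30.2% (28.0 to 32.5) of microglia-like cells had a DM UMI in the Igfbpl1 library and 30.7% (27.5 to 34.0) in the PBS library; before thinning the shares were 53.3% and 66.7%. Of neuron-like cells 4.44% and 0% had a DM UMI after thinning, and 7.41% and 0% before. For the presenting genes the thinned shares were 39.3% (37.0 to 41.7) of microglia-like cells in the Igfbpl1 library, where 30.4% (22.8 to 38.9) of neuron-like cells also had a UMI, and 14.8% (12.4 to 17.5) in the PBS library, where 1.43% of neuron-like cells did. No cell was left out, since every cell had more than 1000 UMIs.

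**Figure D5:**
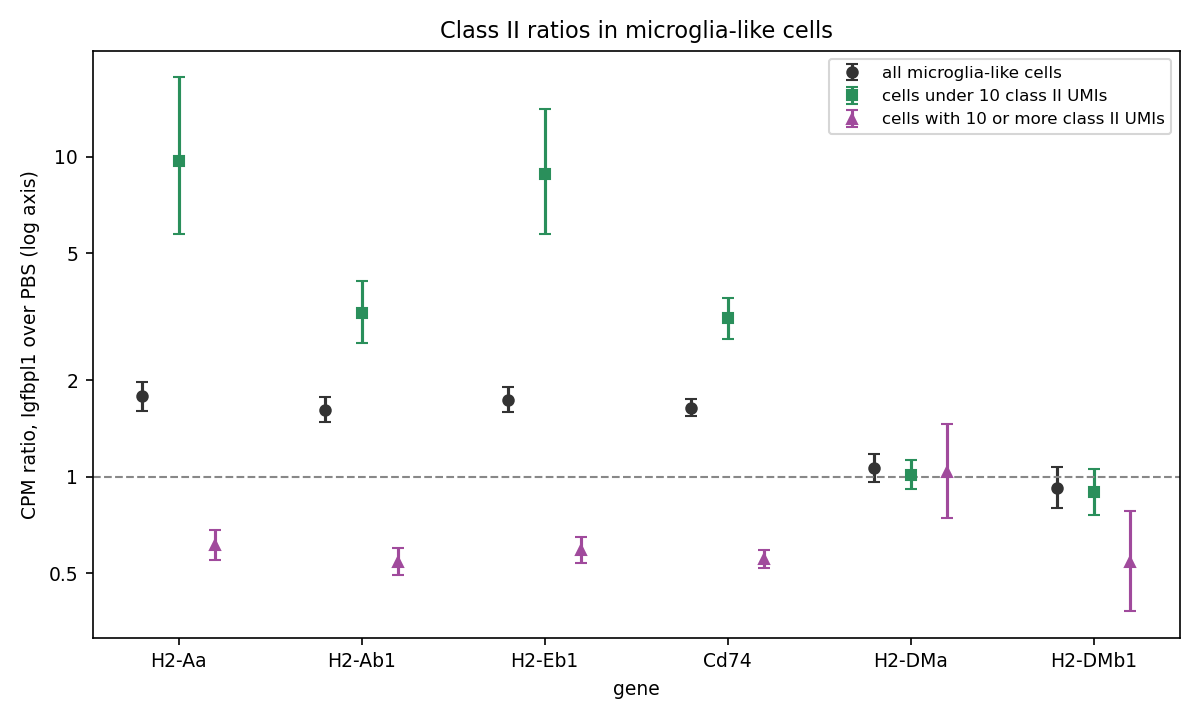
CPM ratio, Igfbpl1 over PBS, of the 6 measured members in microglia-like cells, on a log axis, for all cells, for cells under 10 class II UMIs and for cells with 10 or more, with 95% conditional binomial intervals. The 4 presenting genes lie above 1 in all cells and in the low cells and below 1 in the high cells. H2-DMa lies near 1 in all 3 sets, whereas H2-DMb1 lies at 0.543 (0.380 to 0.784) in the high cells.

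Inside clusters the comparison differed by cluster. Microglia-like cells fell mainly in a cluster led by Ccl12 in the Igfbpl1 library (949 cells, against 102 in the PBS library). In the PBS library they fell mainly in 2 clusters led by C1qa, which held 347 and 251 cells of the Igfbpl1 library, against 363 and 226 cells of the PBS library. In the Ccl12 cluster the presenting genes stood at 814 CPM in the Igfbpl1 library and 235 CPM in the PBS library. In the C1qa-led clusters they stood at 378 and 415 CPM in the Igfbpl1 library, against 111 and 109 CPM in the PBS library. For comparison, neuron-like cells with under 10 class II UMIs had 324 CPM (263 to 395) in the Igfbpl1 library and 9.06 CPM in the PBS library. DM in the C1qa-led clusters was 368 and 340 CPM in the Igfbpl1 library, against 359 and 357 CPM in the PBS library, with ratios of 1.03 (0.874 to 1.20) and 0.953 (0.784 to 1.16). In the Ccl12 cluster DM was 334 and 244 CPM (1.37, 1.13 to 1.68). The microglia-like cells of the Apoe and Lyz2 cluster, 54 and 25 in number, had 21630 CPM of the presenting genes in the Igfbpl1 library and 31847 CPM in the PBS library.

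The free-RNA background itself differed between the libraries. Neuron-like cells had 337 class II UMIs (1064 CPM, 954 to 1184) in the Igfbpl1 library and 2 UMIs (9.06 CPM, 1.10 to 32.7) in the PBS library. In the Igfbpl1 library 3 cells held 232 of the 337 UMIs, with 131, 83 and 18 UMIs. The cells with 131 and 83 UMIs each also had UMIs of 4 monocyte markers. Without these 3 cells the level was 347 CPM (284 to 420), which lay near that of NK-like cells (473 CPM, 400 to 554, with 58 of 151 UMIs in 1 cell) and of T-like cells with under 10 class II UMIs (324 CPM, 282 to 371) of the same library. T-like cells of the PBS library had 3 class II UMIs (27.0 CPM, 5.57 to 78.9). Muller glia or astrocyte-like cells had 234 CPM (134 to 379) in the Igfbpl1 library and 0 in the PBS library, which allows up to 65.0 CPM. With neuron-like and T-like cells of at least 10 class II UMIs left out, these classes lay between 234 and 473 CPM in the Igfbpl1 library. In the PBS library they lay between 0 and 27.0 CPM. All T-like cells of the Igfbpl1 library together had 1002 CPM (928 to 1079), near the 1064 CPM of all neuron-like cells. The cut at 10 UMIs uses the counts it describes, so the narrower range is a description.

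B-like cells had high class II in both libraries. H2-Aa had 4276 CPM in the Igfbpl1 library and 3402 CPM in the PBS library (1.26, 1.12 to 1.41). H2-Ab1 had 3920.2 and 3249 CPM (1.21, 1.07 to 1.36), H2-Eb1 4479 and 3153 CPM (1.42, 1.27 to 1.59), and Cd74 11209 and 11333 CPM (0.989, 0.926 to 1.06). H2-DMb2 was lower, at 196 CPM in the Igfbpl1 library and 387 CPM in the PBS library (0.506, 0.313 to 0.796), and Ciita rested on 8 and 22 UMIs (0.497, 0.191 to 1.16). Of the 8 measured members 1 (H2-DMb1) was called higher, against 14.7% of 2394 measured genes, and 2 (Ciita and H2-DMb2) lower, against 23.7%. These counts lie near the shares of all genes. The sum of the 8 genes was 1.11 (1.06 to 1.17) times as high in the Igfbpl1 library, and 0.8005 times when the cells came from clusters. B-like cells of the Igfbpl1 library also held more microglia markers (791 CPM, against 260 CPM in the PBS library) and more monocyte markers (1016 and 536 CPM), and fewer B markers (14447 and 24937 CPM). The part of other cells' RNA in this comparison was not tested.

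The other genes of the pathway were counted in microglia-like cells by the same call, which 3.92% of all measured genes passed as higher and 5.36% as lower. Of 9 genes of class II transcription 1 was measured and not called: Creb1, a factor of the X2 box, had 66.2 CPM in the Igfbpl1 library and 98.3 CPM in the PBS library (0.673, 0.567 to 0.799). Rfx5, a subunit of the RFX complex, had 8.84 CPM in the Igfbpl1 library and 8.62 CPM in the PBS library (1.02, 0.596 to 1.79). Of 7 genes that process peptides and Cd74, all measured, 1 was higher and none lower. That gene, Ifi30, the lysosomal thiol reductase, had 739 and 405 CPM (1.83, 1.71 to 1.95) in the Igfbpl1 and PBS libraries. Ctss, the cathepsin that trims Cd74, had 6611 and 6140.3 CPM (1.08, 1.06 to 1.10). Of 5 measured genes of class II surface turnover 2 were higher and 1 lower: Cd83, which protects class II from ubiquitin-driven removal, had 772 and 478 CPM (1.61), Cd63, a tetraspanin, had 758 and 494 CPM (1.54), and Cd9, another tetraspanin, had 1867 and 2945 CPM (0.634). The median log2 ratio was 0.11 for the processing list and 0.43 for the turnover list, against -0.12 for all measured genes.

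Of 2 measured co-stimulatory genes none was called: Cd86 had 560.2 and 482 CPM (1.16, 1.09 to 1.24) and Cd274, which encodes the checkpoint ligand PD-L1, had 66.4 and 43.8 CPM (1.52, 1.22 to 1.89), in the Igfbpl1 and PBS libraries. Of 7 measured genes of interferon-gamma signalling none was called. Irf1, an interferon-induced factor that acts on the Ciita gene, had 156 and 113 CPM (1.38, 1.21 to 1.58). Ifng itself had 28 UMIs (7.07 CPM) in microglia-like cells of the Igfbpl1 library and 0 in those of the PBS library. It was higher in other classes of the Igfbpl1 library: NK-like cells had 1146 CPM (1032 to 1270) and T-like cells 378 CPM (333 to 427). T-like cells of the PBS library had 36.0 CPM (9.81 to 92.2) from 4 UMIs. The list of Cd74 partners had 1 measured gene, Mif, a cytokine that binds Cd74, with 167 and 116 CPM (1.44, 1.26 to 1.65), which was not called. Of the other class II locus genes 3 of 4 were matched and none was measured in microglia-like cells. H2-Oa, a chain of the DM inhibitor H2-DO, had 42.4 CPM (36.3 to 49.4) in microglia-like cells of the Igfbpl1 library and 40.0 CPM (33.1 to 48.0) in those of the PBS library, and 451 CPM in conventional dendritic-like cells of the Igfbpl1 library. Its partner H2-Ob had, in B-like cells, 247 CPM in the Igfbpl1 library and 488 CPM in the PBS library (0.505, 0.331 to 0.757).

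The genes whose level over the 17 points was most like the summed members, among 8900 genes compared, were Gm20513 (r = 0.890), Wfdc17 (0.874), Ifi30 (0.874), Clic4 (0.861), Cybb (0.858), Spi1 (0.857), Vamp8 (0.856), Pold4 (0.855), Eif4ebp1 (0.854) and Gm6377 (0.844). Gm20513 overlaps H2-Eb1 on the opposite strand, at chr17:34293073-34308070 (mm10), so reads of the 2 genes cannot be told apart unless counting used strand.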

How the data were processed

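The authors deposited 1 table of UMI counts per gene and cell for each library; per the submitters' processing notes they used Cell Ranger 3.1 and the build mm10, and the filter on cells before deposit is not stated there (lowest UMIs per cell 1001 and 1003). The counts were used as deposited, in all cells, with doublet calls (Scrublet in scanpy 1.11.5, 62 and 6 cells) left in. The 8 members and all lists were chosen with earlier results of these data known, and the rule for placing cells after seeing the data: a cell took the class with the largest share of its markers detected, with at least 3 markers and 3 marker UMIs, and was mixed where another class reached the largest share divided by 1.5. Levels are UMIs summed over cells, as CPM, with exact Poisson intervals; ratios have conditional binomial and shares Clopper-Pearson 95% intervals (scipy 1.17.1), and 0 has a limit of 3 counts. UMI levels at the 3' end were not divided by length. Ratios were made for classes of at least 20 cells in both libraries. From each pathway list at most 3 measured genes were named, the most abundant and the 2 with the largest ratio, plus Ifng, Rfx5 and Irf1. A gene this rule names is not reported here. H2-Oa, H2-Ob and the clusters' leading genes were named after their values were seen. The fold call was tested on simulated data.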

Additional observations from a re-analysis of the deposited data

Results flagged for a closer look

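The ratio between the libraries lay on opposite sides of 1 in microglia-like cells split by sex-linked transcripts. In cells with UMIs of Xist and none of the 4 Y-linked genes, the ratio of Igfbpl1 over PBS was 2.31 for H2-Aa, 2.30 for Cd74 and 2.01 for the 8 genes together. In cells with Y-linked UMIs and none of Xist it was 0.794 for H2-Aa, 0.878 for Cd74 and 0.880 for the 8 genes. High cells numbered 51 of 595 and 4 of 192 in the first set and 11 of 434 and 15 of 376 in the second, in the Igfbpl1 and PBS libraries. Over all classes, cells with Xist and no Y-linked UMIs numbered 1547 in the Igfbpl1 library and 250 in the PBS library. Those with Y-linked UMIs and no Xist numbered 560 and 490, so the libraries also differed in this makeup. The difference between the sets was not tested, and the mice's sex is not given in the labels.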

How the results depend on the processing

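No paired analysis was possible because each group is 1 library, and no replicate could be left out. The ratio of the 8 genes in microglia-like cells (1.529, Igfbpl1 over PBS) was 1.901 with clusters, 1.45 with stricter markers, 1.35 without doublet calls, 1.664 scaled by the median ratio, 1.038 thinned to 1000 UMIs, 2.005 in Xist-only cells, 1.765 in cells under 10 class II UMIs and 1.855 in cells of at least 2000 UMIs. It turned round to 0.8804 in Y-only cells and to 0.8507 with the neuron-like level subtracted. With the 3 neuron-like cells of at least 10 class II UMIs left out of that level it was 1.313, and the 4 presenting genes were at 1.418. In B-like cells (1.115) it was 1.227 scaled by the median ratio, 1.531 in Xist-only cells and 1.385 in cells of at least 2000 UMIs, and it turned round to 0.8005 with clusters, 0.8923 thinned and 0.6962 in Y-only cells. The neuron-like level of the Igfbpl1 library (1064 CPM) was 733.5 with clusters, 465.4 with stricter markers, 665.5 without doublet calls, 1189 scaled without the members, mitochondrial and ribosomal protein genes, 651.9 thinned, 1439 in Xist-only cells, 362.8 in Y-only cells, 347.2 without cells of at least 10 class II UMIs and 1421 in cells of at least 2000 UMIs. That of the PBS library (9.061 CPM) was 0 in Xist-only cells. The share of microglia-like cells with a class II UMI was 59.5% in Xist-only cells of the Igfbpl1 library (56.74% in all), and without thinning 80.4% in the Igfbpl1 library and 78.07% in the PBS library.

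Of 139 alternative values for single members, the 4 presenting genes or the 3 DM genes in microglia-like cells, 78 stayed within the counting interval, 50 left it with no called value changing side of 1, and 11 turned round. In Y-only cells the ratio was 0.7938 for H2-Aa, 0.9061 for H2-Ab1, 0.884 for H2-Eb1, 0.878 for Cd74 and 0.8721 for the 4 together. With the neuron-like level subtracted these were 0.7449, 0.7267, 0.7536, 0.9689 and 0.8423. Thinned, H2-Eb1 was 0.9793. The 3 DM genes together (1.015) ranged between 0.8664 with subtraction and 1.121 in Xist-only cells. No alternative run that gave a ratio took Ciita below 1, but several of its intervals reached below 1. Their lower limits were 0.3661 in Y-only cells, 0.7926 with clusters, 0.85 thinned and 0.8347 in cells under 10 class II UMIs. Xist-only cells gave no Ciita ratio, since those of the PBS library had 0 UMIs. The 131 genes higher and 179 lower became 230 and 388 with a minimum of 10 CPM, and 43 and 9 at 2-fold. The cause of these shifts was not tested. The settings with at most 1 marker of other lists and with the 3 neuron-like cells left out were chosen after seeing the data. Leaving out cells of at least 10 class II UMIs gave no B-like value, median-ratio scaling and subtraction gave none for neuron-like cells, and scaling and subtraction gave none for shares. Depth limits Ciita and H2-DMb2 in microglia-like cells, and 1 library per group leaves the spread between mice unmeasured.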

Other observations

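Class II was also high in cells that the markers did not place. Unplaced cells had 31564 CPM in the Igfbpl1 library and 28337 CPM in the PBS library, where 1 cell held 847 UMIs. Mixed cells had 25959 CPM in the Igfbpl1 library and 24091 CPM in the PBS library. In unplaced cells H2-DMb2 made up 16.2% (12.4 to 20.8) of the beta chain UMIs in the Igfbpl1 library and 40.7% (22.4 to 61.2) in the PBS library. Counted as a mean over cells that weights every cell alike, microglia-like cells had 1.72 class II UMIs per 1000 UMIs in the Igfbpl1 library and 1.59 in the PBS library.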
